A study of Mus musculus with 16 samples.

Results

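Mitochondrial ribosomal protein genes are described here in the mouse aorta after 7 days of angiotensin II (Ang II) infusion. The members were all protein-coding genes of the deposited expression table whose symbol is Mrpl or Mrps followed by a number and at most 1 letter, which gave 78 of 54532 genes. Membership was set by name, but the family was chosen with earlier results of these data known. Of the 78, 51 encode proteins of the large subunit, 26 encode proteins of the small subunit, and Mrps36 encodes a protein that carries the name but sits outside the mitochondrial ribosome.

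RNA was sequenced from aortas stripped of the adventitia, the outer layer of the vessel wall. All animals were male mice of strain C57BL/6j, aged 8 to 12 weeks. The labels' protocols give the genotype of both groups as Apoe-/-, while library names call both groups WT. Apoe-/- mice lack apolipoprotein E and are prone to high plasma cholesterol. Osmotic pumps delivered saline to 1 group (8 libraries) and Ang II, a hormone that constricts arteries, at 1000 ng/kg/min to the other (8 libraries). The labels do not say which mouse stands behind a sample or whether tissue was pooled, so each p-value speaks of the variation among the samples at hand, which may be partly technical.

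The mitochondrial ribosome sits inside mitochondria and translates the few mRNAs encoded by mitochondrial DNA, whose products are core subunits of the respiratory chain and ATP synthase. Its rRNAs come from mitochondrial DNA, while its proteins are made in the cytosol from nuclear genes and imported. Part of those proteins have a counterpart in the bacterial ribosome, and the others are found only in mitochondria. The small subunit reads the mRNA, and the large subunit forms the peptide bonds and docks on the inner membrane where the new proteins are inserted.

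These nuclear genes lie apart on 17 chromosomes, with 11 members on chromosome 11, the most on any. Their promoters are shown to let a reader see which short motifs these scattered genes hold and which they lack. RefSeq windows of build GRCm38.p6, reaching from 250 bases before to 50 bases after the annotated start, were matched by symbol for 69 of the 78 members (75 windows of 300 bases, some of them overlapping windows of 1 gene). Both strands were searched for 4 motifs: CGCANGCG for NRF1, a regulator of mitochondrial genes, CCGGAAGT for ETS factors such as GABP, AANATGGCG for YY1, and the E-box CACGTG, which MYC and related factors bind. Matches of different motifs overlapped in 0 of the 75 windows. The NRF1 motif stood in 20 windows (26.7%), against 16% of the 13489 windows of genes tested for expression and 8.21% of all 32851 windows. Per gene, the NRF1 motif stood in 29.0% of the 69 members and 18.8% of genes tested. The ETS motif stood in 12 windows (16%, against 7.63% and 3.89%), the YY1 motif in 11 (14.7%, against 4.70% and 2.38%) and the E-box in 7 (9.33%, against 9.64% and 7.15%). In all, 40 of the 69 members held at least 1 of the 4 motifs.

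The 4 windows below are shown 5′ to 3′ on the strand of the gene, with motif matches in capitals. Mrps27 (chr13:99344536-99344835, plus strand) held 1 NRF1, 1 ETS and 1 YY1 match, and Mrps12 (chr7:28741772-28742071, minus strand) held none of the 4 motifs; both transcripts fell with Ang II. Mrpl12 (chr11:120484387-120484686, plus strand) held 2 NRF1 matches and Mrpl45 (chr11:97315466-97315765, plus strand) held 3, and neither passed the test. Other members went the other way: Mrps26 and Mrpl30, which fell, each held 2 NRF1 matches. Per gene, the NRF1 motif stood in 11 of 39 members that fell (28.2%) and in 9 of 29 that did not pass (31.0%).
Mrps27: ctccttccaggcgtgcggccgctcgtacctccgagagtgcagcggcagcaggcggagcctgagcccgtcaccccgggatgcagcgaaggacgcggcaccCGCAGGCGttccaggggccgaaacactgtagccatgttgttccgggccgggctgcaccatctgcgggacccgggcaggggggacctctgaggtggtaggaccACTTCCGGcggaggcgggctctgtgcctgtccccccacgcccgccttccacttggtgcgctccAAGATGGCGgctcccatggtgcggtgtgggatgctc
Mrps12: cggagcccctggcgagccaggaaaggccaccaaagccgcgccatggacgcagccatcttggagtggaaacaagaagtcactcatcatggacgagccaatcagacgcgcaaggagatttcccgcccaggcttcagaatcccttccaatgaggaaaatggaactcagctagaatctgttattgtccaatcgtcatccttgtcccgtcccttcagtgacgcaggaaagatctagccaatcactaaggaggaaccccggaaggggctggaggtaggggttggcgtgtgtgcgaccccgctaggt
Mrpl12: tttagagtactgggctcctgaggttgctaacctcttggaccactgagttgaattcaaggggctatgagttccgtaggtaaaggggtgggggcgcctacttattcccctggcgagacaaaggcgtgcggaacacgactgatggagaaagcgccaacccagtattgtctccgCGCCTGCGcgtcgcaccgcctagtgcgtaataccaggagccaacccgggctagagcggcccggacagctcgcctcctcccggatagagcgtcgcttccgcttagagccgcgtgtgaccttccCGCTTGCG
Mrpl45: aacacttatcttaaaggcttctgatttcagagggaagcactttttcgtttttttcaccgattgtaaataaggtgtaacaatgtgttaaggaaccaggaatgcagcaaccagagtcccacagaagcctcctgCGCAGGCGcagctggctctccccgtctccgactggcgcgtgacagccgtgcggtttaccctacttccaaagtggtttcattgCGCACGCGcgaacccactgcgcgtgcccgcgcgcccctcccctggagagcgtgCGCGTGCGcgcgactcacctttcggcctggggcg
Counted per gene, since Mrpl2, Mrpl48 and Mrps16 have 3, 4 and 2 windows, an NRF1 or ETS match stood in 14 of the 39 members that fell (35.9%) and in 15 of the 29 that did not pass (51.7%), against 25.6% of 10559 genes tested. A match is a run of letters and not a measured binding site.

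Expression is given in FPKM, which corrects fragment counts for how long a transcript is and how deeply its library was sequenced, so that levels of different genes can be compared. The libraries held 14606863 to 19988729 reads, and each tested member had between 99 and 2394 reads in a library. Mrpl53 was listed at 0 in all 16 libraries and was not tested. Ccdc142os and Gm42688 cover 88.0% of its exon bases, and how reads of overlapping genes were counted is not given in the sources used here. Smooth muscle markers were abundant in every library (Acta2 from 3833 to 9220 FPKM), and their summed level ran from 8780 to 15099 in saline and from 6204 to 10553 with Ang II, with 3 of 6 lower. Macrophage and monocyte markers summed to 12.9 to 539 in saline and 44.1 to 566 with Ang II, with 3 of 6 higher. Neutrophil markers summed to 0 to 8.18 in saline and 2.37 to 107 with Ang II (1 of 2 tested higher, S100a9), and endothelial markers to 410 to 1260 and 134 to 1109 (1 of 5 lower, Pecam1). Fibroblast and adventitia markers were still read in these stripped aortas, at sums of 42.2 to 175 in saline and 37.1 to 142 with Ang II. Of these 5 markers 0 were higher and 0 lower. The part of all these cell types in the results was not tested. Saline 8, Saline 7 and, less far, Saline 2 stood apart from the other libraries on the first principal component, which held 46.9% of the variance. Results are given with and without Saline 7 and Saline 8, the libraries in which these genes were highest.

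Most mitochondrial ribosomal protein transcripts were lower after Ang II, each by a modest amount. Of 77 members tested, 43 fell and 0 rose at a limma adjusted p below 0.05, and 34 did not pass. That is 55.8% of the members, where 24.9% of all 15007 genes tested were lower and 9.54% were higher. The median log2 fold change (Ang II minus saline, on the log2(FPKM + 1) scale) was -0.34 for the members and -0.12 for all genes, which are changes of -20.8% and -8.03%. The fold change was below 0 for 74 members and above 0 for Mrps6, Mrps22 and Mrpl20, at 0.13, 0.09 and 0.05. All genes were below 0 in 60.6% of cases. Only 14 members were at least 1.5-fold lower and 0 were 2-fold lower. At an unadjusted p below 0.05, 51 members were lower and 0 higher. Limma voom on reads recovered from the FPKM gave 40 lower and 0 higher, and a Wilcoxon rank-sum test gave 38 and 0. Shares of all genes are not given here for these counts, so whether they exceed the general fall cannot be read from them. In bulk tissue, fewer cells of a type and less RNA per cell cannot be told apart.

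**Figure D1:**
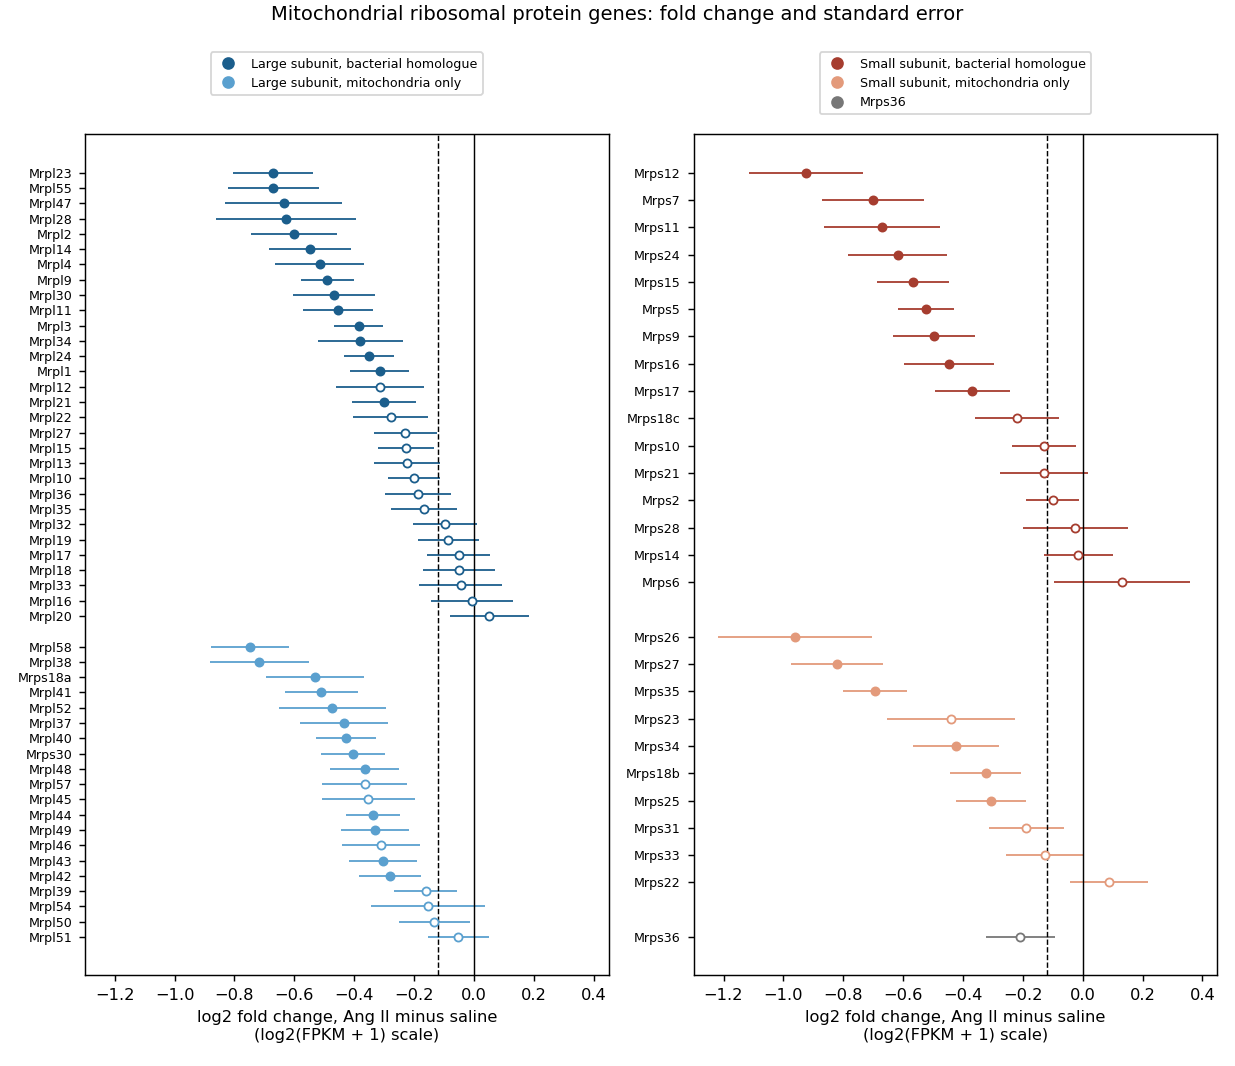
Log2 fold change (Ang II minus saline, x axis, log2(FPKM + 1) scale) of each of the 77 tested members, with its standard error; filled points passed an adjusted p of 0.05, open points did not, and the dashed line is the median of all genes tested. The filled points are all to the left of 0, and the 3 points to the right of 0 (Mrps6, Mrps22 and Mrpl20) are open.

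The count of calls depended on which libraries entered and on how they were scaled. Without Saline 7 and Saline 8, 33 members were lower (42.9%, against 26.6% of all genes) and 0 higher (8.43% of all genes), with 32 of the 33 among the 43, and the median was -0.25 against -0.16 for all genes. Scaling the libraries by median ratios moved the median of all genes up by 0.12 to -0.01 and the median of the members to -0.20. With that scaling 16 members were lower (20.8%, against 14.1% of all genes), all 16 among the 43, 0 were higher (14.9% of all genes), also at an unadjusted p below 0.05, and 13 members changed sign. Median ratio scaling split the calls over all genes into 2235 higher and 2113 lower, where as deposited they were 1431 higher and 3741 lower. Quantile normalization gave 18 members lower (23.4%, against 15.8%) and 0 higher (against 15.1%), with 1 higher at an unadjusted p below 0.05, and 2270 higher and 2374 lower over all genes. The members lay below the median of all genes by 0.22 as deposited, by 0.20 after median ratio scaling and by 0.09 without Saline 7 and Saline 8.

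A group of 14 members, listed after their values were seen, was lower under each of the 31 other settings run: Mrpl2, Mrpl3, Mrpl9, Mrpl23, Mrpl38, Mrpl40, Mrpl41, Mrpl55, Mrpl58, Mrps5, Mrps12, Mrps15, Mrps27 and Mrps35. The share of all genes lower under every setting was not counted, so whether 14 is many is not known. The settings reuse most of the same libraries and are not independent. In 11 members the highest Ang II library was under the lowest saline library (14.3% of those tested, where 5.62% of all genes did so), and the reverse held for 0 members (2.74% of all genes). Mrpl24, which was named after its values were seen, was the 1 gene of these 11 outside the group of 14.

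Calls fell in every class of ribosomal protein. Of the large subunit 28 of 50 tested members fell, with a median log2 fold change of -0.33, and of the small subunit 15 of 26, with a median of -0.40. Among large subunit proteins with a bacterial counterpart 15 of 30 fell (median -0.31), and among those found only in mitochondria 13 of 20 (median -0.36). For the small subunit the counts were 9 of 16 (median -0.41) and 6 of 10 (median -0.37). Differences between the classes were not tested.

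Among the large subunit proteins with a bacterial counterpart, Mrpl9 gave the smallest adjusted p. It ran from 21.2 to 32.3 FPKM (median 23.4) in saline and from 15.7 to 18.4 (median 16.5) with Ang II. The groups did not overlap, and its log2 fold change was -0.49 (SE 0.09, adjusted p = 0.000484 by limma). Mrpl3, which reaches the catalytic centre of the large subunit, varied little in saline, at 25.05 to 28.2 FPKM (median 26.6), and ran from 17.0 to 24.9 (median 19.9) with Ang II. Its highest Ang II library lay just under its lowest saline library, and the log2 fold change was -0.39 (SE 0.08, adjusted p = 0.00184 by limma). Saline 7 and Saline 8 were its highest libraries but lay close to the others, and without them the log2 fold change was -0.36.

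Mrpl23, a protein at the exit of the peptide tunnel, ran from 30.1 to 60.9 FPKM (median 43.1) in saline and from 21.5 to 30.9 (median 27.4) with Ang II. Of its 8 Ang II libraries 7 were under the saline range (log2 fold change -0.67, SE 0.13, adjusted p = 0.00113 by limma). Mrpl55 ran from 22.1 to 47.8 FPKM (median 27.7) in saline and from 15.0 to 21.0 (median 19.4) with Ang II, with no overlap (log2 fold change -0.67, SE 0.15, adjusted p = 0.00291 by limma). Its top saline libraries were Saline 7 and Saline 8, and without them its log2 fold change was -0.47. Mrpl1, part of the mobile stalk beside the tRNA exit, was among the lowest members, at 3.68 to 5.43 FPKM (median 4.38) in saline and 2.56 to 4.08 (median 3.32) with Ang II (log2 fold change -0.31, SE 0.10, adjusted p = 0.0198 by limma). Only its highest Ang II library reached into the saline range.

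The stalk that recruits translation factors is built on Mrpl10, Mrpl11 and several copies of Mrpl12. Of these 3 genes Mrpl11 alone passed as deposited, and with median ratio scaling, quantile normalization or the brown adipocyte score 0 of the 3 did. Mrpl11 ran from 6.71 to 13.1 FPKM (median 9.52) in saline and from 6.19 to 7.498 (median 6.72) with Ang II, and it fell (log2 fold change -0.45, SE 0.12, adjusted p = 0.00653 by limma), with 4 of 8 Ang II libraries under the saline range. In the 3 settings that ended its call, the Mrpl11 log2 fold change was -0.33 (median ratio scaling, adjusted p = 0.0568 by limma), -0.34 (quantile normalization, 0.0558) and -0.34 (brown adipocyte score, 0.0591). Mrpl12 ran from 17.7 to 39.6 FPKM (median 23.6) in saline and from 15.4 to 24.5 (median 18.3) with Ang II. Its groups overlapped and it did not pass (log2 fold change -0.31, SE 0.15, adjusted p = 0.104 by limma). Mrpl10 ran from 24.1 to 30.9 FPKM (median 25.9) in saline and from 19.4 to 26.5 (median 23.4) with Ang II, and it did not pass either (log2 fold change -0.20, SE 0.09, adjusted p = 0.0844 by limma). Differences between these 3 fold changes were not tested. Mrpl20, which binds rRNA early in assembly, was the third most abundant member and had a log2 fold change of 0.05 (SE 0.13, adjusted p = 0.786 by limma). Its range was 57.2 to 112 FPKM (median 75.9) in saline and 66.2 to 103 (median 77.9) with Ang II, so the groups lay on top of each other.

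Among the large subunit proteins found only in mitochondria, Mrpl58 gave the smallest adjusted p. Mrpl58 is a peptidyl-tRNA hydrolase that releases chains from stalled ribosomes and is built into the large subunit. It ran from 31.4 to 63.2 FPKM (median 39.1) in saline and from 20.6 to 28.4 (median 23.6) with Ang II. The groups did not overlap, and the log2 fold change was -0.75 (SE 0.13, adjusted p = 0.000362 by limma), or -0.59 without Saline 7 and Saline 8. Mrpl38, a protein of the central protuberance, ran from 42.2 to 96.9 FPKM (median 46.6) in saline and from 26.3 to 38.6 (median 33.7) with Ang II. It did not overlap between groups (log2 fold change -0.72, SE 0.17, adjusted p = 0.00337 by limma, and -0.49 without the 2 saline libraries). Mrpl40, of the same protuberance, ran from 14.4 to 20.5 FPKM (median 17.2) in saline and from 9.51 to 15.0 (median 12.7) with Ang II, with 7 of 8 Ang II libraries under the saline range (log2 fold change -0.43, SE 0.10, adjusted p = 0.00382 by limma).

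Mrpl52 was the most abundant of this class, at 85.5 to 202 FPKM (median 113) in saline and 71.5 to 117 (median 87.5) with Ang II. It passed narrowly (log2 fold change -0.47, SE 0.18, adjusted p = 0.0479 by limma), and without Saline 7 and Saline 8 its log2 fold change was -0.24 and it did not pass (adjusted p = 0.146 by limma). Mrps30, a large subunit protein despite its name, was the lowest tested member, at 2.69 to 5.41 FPKM (median 3.63) in saline and 2.16 to 2.86 (median 2.59) with Ang II. It fell (log2 fold change -0.40, SE 0.11, adjusted p = 0.00831 by limma), with 6 of 8 Ang II libraries under the saline range. Mrpl45, which anchors the ribosome to the inner membrane beside the peptide exit, ran from 13.3 to 34.6 FPKM (median 17.8) in saline and from 12.2 to 18.7 (median 14.4) with Ang II. Its groups overlapped and it did not pass (log2 fold change -0.35, SE 0.15, adjusted p = 0.0854 by limma).

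The 3 largest falls of the set, those of Mrps26, Mrps12 and Mrps27, were in the small subunit. Mrps12, a protein of the decoding centre (chr7:28739641-28741820), ran from 22.3 to 57.0 FPKM (median 27.5) in saline and from 13.4 to 19.3 (median 17.1) with Ang II. The groups did not overlap (log2 fold change -0.92, SE 0.19, adjusted p = 0.00148 by limma). Saline 7 and Saline 8 were its highest libraries, and the log2 fold change was -0.66 without them. Mrps5, which lines the path of the entering mRNA, ran from 18.9 to 30.9 FPKM (median 22.6) in saline and from 14.4 to 16.2 (median 15.8) with Ang II. The 8 Ang II libraries of Mrps5 lay close together and below all of saline (log2 fold change -0.52, SE 0.09, adjusted p = 0.000431 by limma). Mrps15, an rRNA-binding protein, ran from 44.0 to 81.9 FPKM (median 56.1) in saline and from 32.7 to 46.6 (median 37.2) with Ang II, with 7 of 8 Ang II libraries under the saline range (log2 fold change -0.57, SE 0.12, adjusted p = 0.00194 by limma).

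Other small subunit genes with a bacterial counterpart did not pass. Mrps21 had the highest mean of all members and ran from 91.6 to 190 FPKM (median 119) in saline and from 91.9 to 137 (median 109) with Ang II (log2 fold change -0.13, SE 0.15, adjusted p = 0.511 by limma). Its groups overlapped almost whole, and its fold change was 0.01 after median ratio scaling. Mrps6, Mrps14 and Mrps28, named after their values were seen, had log2 fold changes of 0.13, -0.02 and -0.03, with standard errors of 0.23, 0.12 and 0.18.

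Among small subunit proteins found only in mitochondria, Mrps35 (chr6:147042764-147073991) had the smallest adjusted p of all members. It ran from 8.04 to 12.4 FPKM (median 9.51) in saline and from 4.91 to 6.91 (median 5.78) with Ang II. The groups were well apart (log2 fold change -0.69, SE 0.11, adjusted p = 0.000142 by limma), and the log2 fold change was -0.59 without Saline 7 and Saline 8 and -0.57 after median ratio scaling. Mrps27, an RNA-binding protein of the pentatricopeptide repeat family (chr13:99344786-99415562), ran from 9.34 to 24.7 FPKM (median 14.6) in saline and from 7.00 to 9.18 (median 7.93) with Ang II. Its highest Ang II library lay just below its lowest saline library (log2 fold change -0.82, SE 0.15, adjusted p = 0.000694 by limma). 6430562O15Rik, on the opposite strand, covers 24.2% of its exon bases, and whether strand was used in counting is not given in the sources used here. The largest fall of any member, named after its values were seen, was that of Mrps26, from a median of 16.4 FPKM (12.6 to 60.3) in saline to 9.71 (9.19 to 16.7) with Ang II. Its log2 fold change was -0.96 (SE 0.26, adjusted p = 0.00866 by limma), and -0.60 without Saline 7 and Saline 8.

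**Figure D2:**
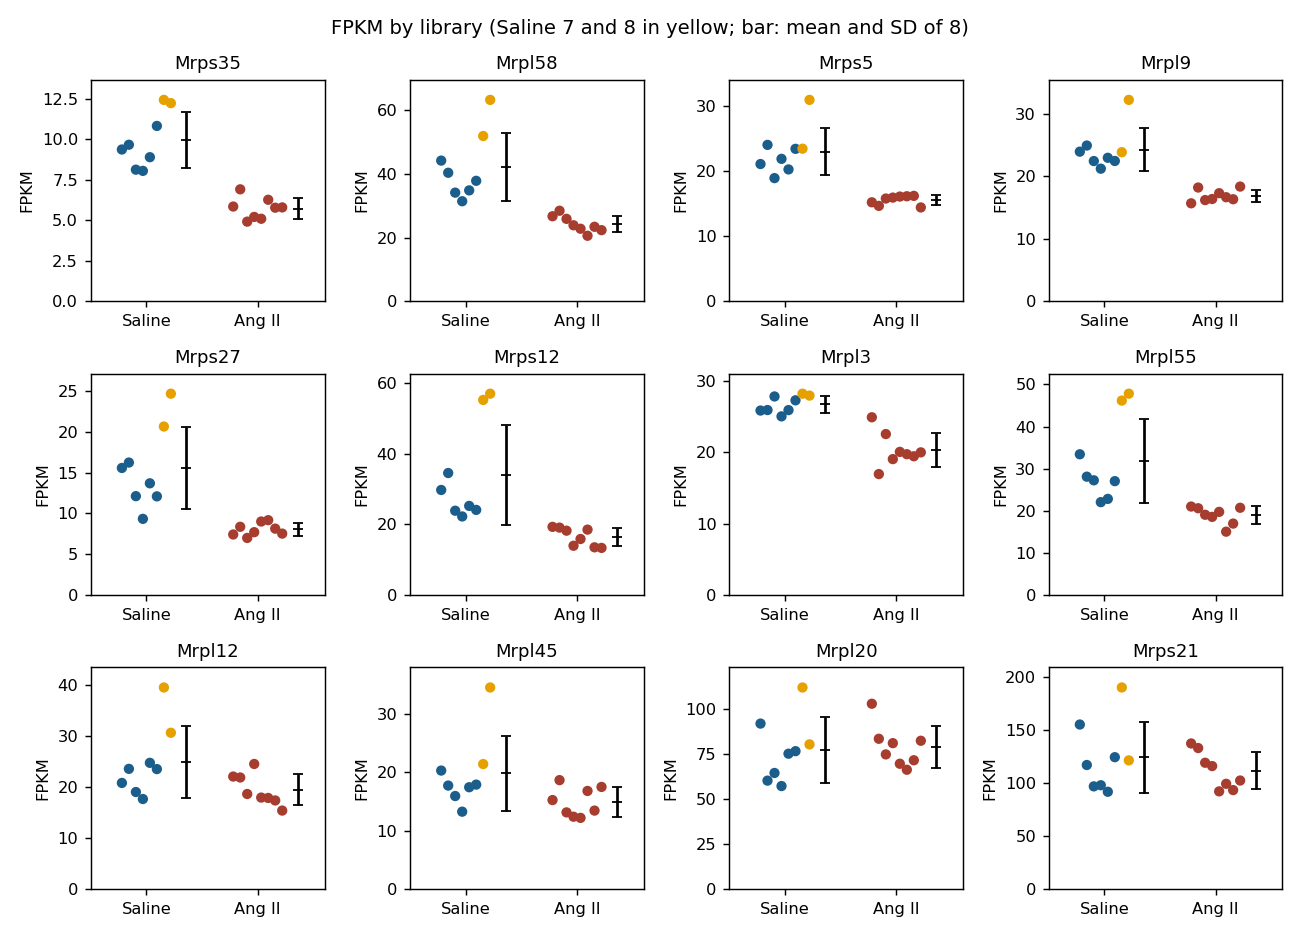
FPKM (y axis) of 12 members in each library, with saline and Ang II on the x axis, Saline 7 and Saline 8 in yellow, and the mean and SD of 8 libraries as a bar. Mrps35, Mrpl58, Mrps5, Mrpl9, Mrps27, Mrps12, Mrpl3 and Mrpl55 do not overlap between groups, while Mrpl12, Mrpl45, Mrpl20 and Mrps21 do.

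The 3 Mrps18 genes encode related proteins that occupy different places. Mrps18a, of the large subunit, ran from 22.4 to 55.4 FPKM (median 27.5) in saline and from 18.3 to 24.7 (median 21.5) with Ang II, and it fell (log2 fold change -0.53, SE 0.16, adjusted p = 0.0193 by limma). Its highest libraries were Saline 7 (55.4) and Saline 8 (49.7). Mrps18a lost the call in 4 of the 31 other settings: median ratio scaling, quantile normalization and the 2 adipocyte scores. Mrps18b, of the small subunit, ran from 13.9 to 23.8 FPKM (median 19.5) in saline and from 12.4 to 16.2 (median 14.8) with Ang II (log2 fold change -0.32, SE 0.12, adjusted p = 0.0431 by limma). Mrps18b was not called in 21 of the 31 other settings. Without Saline 7 and Saline 8 its fold change was larger, at -0.44 (adjusted p = 0.00373 by limma). Mrps18c, the counterpart of the bacterial protein, ran from 21.3 to 40.7 FPKM (median 30.5) in saline and from 20.5 to 38.9 (median 23.6) with Ang II, and it did not pass (log2 fold change -0.22, SE 0.14, adjusted p = 0.239 by limma). Other gene models overlap 30.5% of the exon bases of Mrps18b and 23.2% of those of Mrps18c. Mrps36, an adaptor of the 2-oxoglutarate dehydrogenase complex, ran from 21.4 to 35.3 FPKM (median 26.1) in saline and from 19.5 to 28.8 (median 23.0) with Ang II, and it did not pass (log2 fold change -0.21, SE 0.11, adjusted p = 0.167 by limma).

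Among members the level varied widely. The mean FPKM of the tested members spanned 37.1-fold with a median of 22.8, and the 5 most abundant (Mrps21, Mrpl52, Mrpl20, Mrpl4 and Mrpl30) held 19.5% of the summed FPKM. Members that fell had a median of 25.4 FPKM and a median mean transcript length of 1027 bases. Members that did not pass had 19.6 FPKM and 1299 bases. Exons of 10 members overlap other gene models by more than 20%, and among the 53 tested members with less than 5% overlap 27 fell. Annotated pseudogenes of this family (of Mrps36, Mrpl23 and Mrpl48) had a mean of at most 0.753 FPKM.

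**Figure D3:**
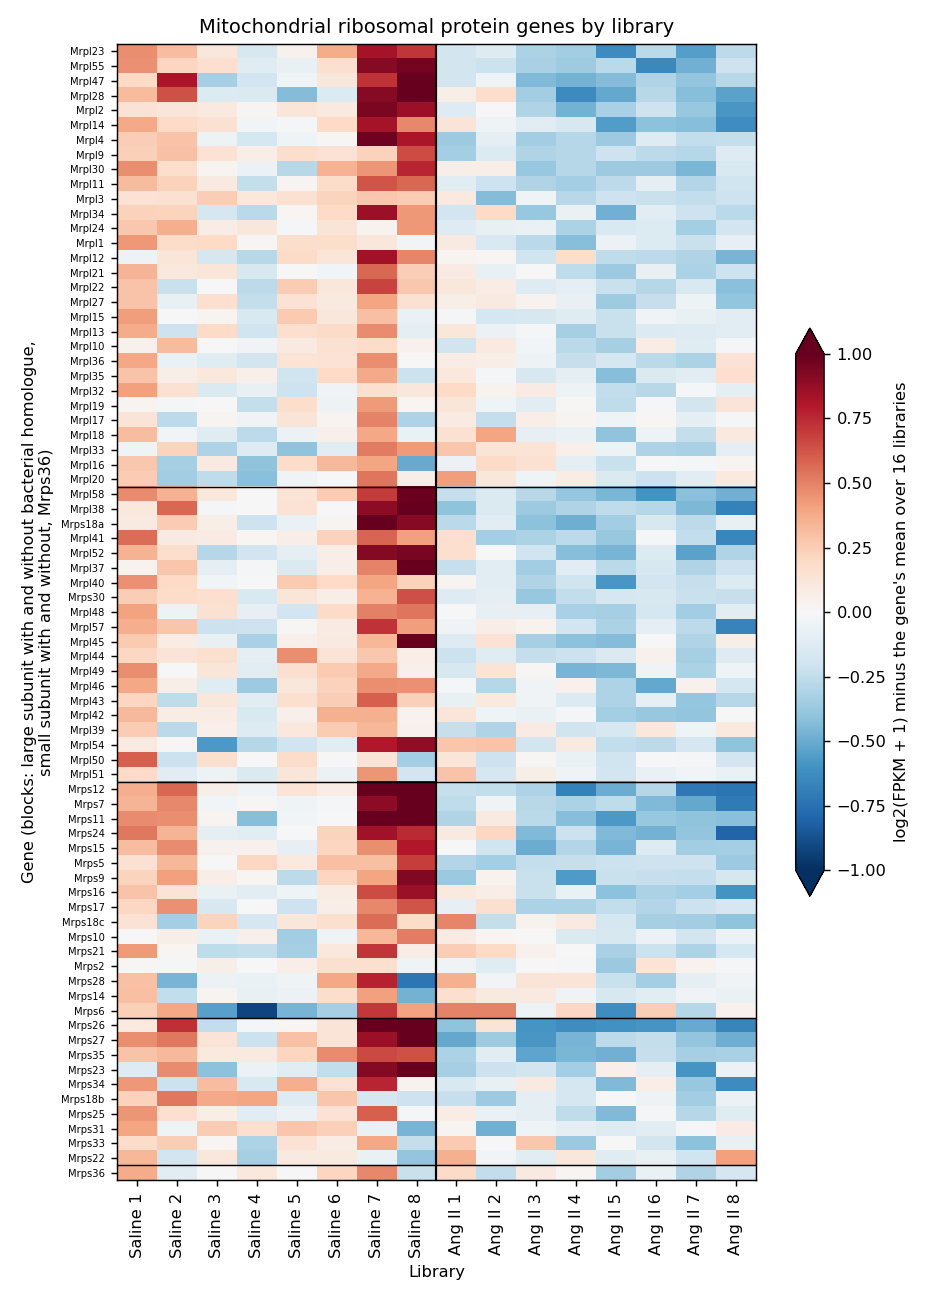
Each row is a tested member and each column a library; colour is log2(FPKM + 1) minus the mean of that gene over 16 libraries, from blue (lower) to red (higher), and lines part the classes and the groups. The columns of Saline 7 and Saline 8 are the reddest, and the Ang II columns are mostly blue.

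The total of these transcripts had an SD of 524 FPKM over the 8 saline libraries and 177 over the 8 Ang II libraries, and 246 over the 6 saline libraries without Saline 7 and Saline 8. The summed FPKM of the members ran from 1941 to 3342 in saline (median 2344) and from 1691 to 2163 with Ang II (median 1837). Saline 7 (3342) and Saline 8 (3190) were the highest, and the other 6 saline libraries ran from 1941 to 2603, so they overlap with the Ang II range. Saline 7 was the highest of 16 libraries for 39 of 77 members and Saline 8 for 26. Saline 8 was also the lowest library for 7 members, which Saline 7 was for 0.

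A minority of fat cell markers were lower with Ang II. Brown adipocytes are rich in mitochondria, and fat surrounds the mouse aorta. The 6 brown adipocyte markers summed to 16 to 214 FPKM in saline and 6.52 to 32.0 with Ang II, and 2 of the 5 tested (Cidea and Cox7a1) were lower. Ucp1, the defining marker, did not pass (log2 fold change -1.18, SE 0.79, adjusted p = 0.253 by limma). It was listed at 0 in 1 saline library and in 4 Ang II libraries, and was highest in Saline 2 (29.9 FPKM), Saline 8 (29.1), Ang II 8 (11.5) and Saline 6 (9.94). In Saline 7, the library with the highest sum of the members, Ucp1 was at 1.56 FPKM. The 6 white adipocyte markers summed to 13.5 to 127 FPKM in saline and 6.16 to 47.0 with Ang II, with 1 of 5 tested lower (Fabp4). Adipoq did not pass (log2 fold change -1.11, SE 0.67, adjusted p = 0.212 by limma) and was listed at 0 in 2 saline libraries. With the brown adipocyte score as a covariate 18 members were lower (23.4%, against 15.3% of all genes) and 0 higher (5.85% of all genes). With the white adipocyte score 20 were lower (26.0%, against 15.7%) and 0 higher (against 6.14%). The part of these cells in the fall was not tested.

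**Figure D4:**
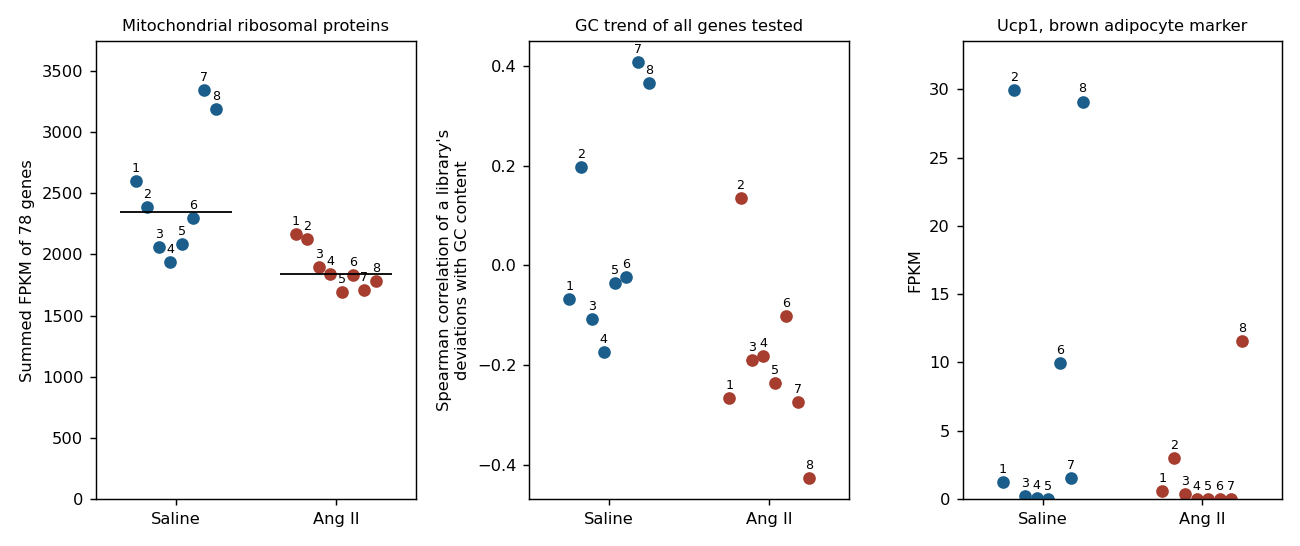
For each library (numbered points, saline and Ang II on the x axis): the summed FPKM of the 78 members with the group median as a line, the Spearman correlation over genes between a library's deviations and GC content, and Ucp1 in FPKM. Saline 7 and Saline 8 are highest in the first 2 panels, and Saline 2 and Saline 8 are highest in the last.

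With the values as deposited, fold changes were more negative for members with GC-rich transcripts, as for genes at large. Among the members this order turned round once GC and length trends were removed. Those trends were fitted over all genes, so the procedure itself sets the correlation across all genes near 0. Among the 26 members with the lowest GC content (39.8% to 47.6%) 10 fell, with a median log2 fold change of -0.22, where all genes in that range had 12.6% lower and a median of 0.03. The middle 25 members (47.7% to 52.3%) had 15 lower and a median of -0.35, against 23.9% and -0.12. The 26 with the highest GC content (52.4% to 60.8%) had 18 lower and a median of -0.51, against 37.9% and -0.29. Across members the Spearman correlation of fold change with GC content was -0.43 (n = 77 genes, which share libraries and are not independent), and across all genes -0.30 (n = 14995). Without Saline 7 and Saline 8, whose deviations correlated with GC content over all genes at 0.41 and 0.37, these were -0.27 and -0.19, and the median of the 26 GC-rich members was -0.32. Other libraries had such a trend too. Deviations of the other saline libraries correlated with GC content at -0.17 (Saline 4) to 0.20 (Saline 2). Those of the Ang II libraries did so at -0.43 (Ang II 8) to 0.14 (Ang II 2). With the GC and length trends of each library removed, 41 members were lower (53.2%, against 27.8% of all genes), 35 of them among the 43, and 0 were higher (9.92% of all genes). From low to high GC content 16, 13 and 12 were then lower, with medians of -0.37, -0.32 and -0.25. All genes in the same ranges had 25.6%, 27.5% and 31.0% lower, with medians of -0.13, -0.14 and -0.15. The Spearman correlation was 0.21 across members and -0.02 across all genes. The part of GC content in the group difference was not tested.

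**Figure D5:**
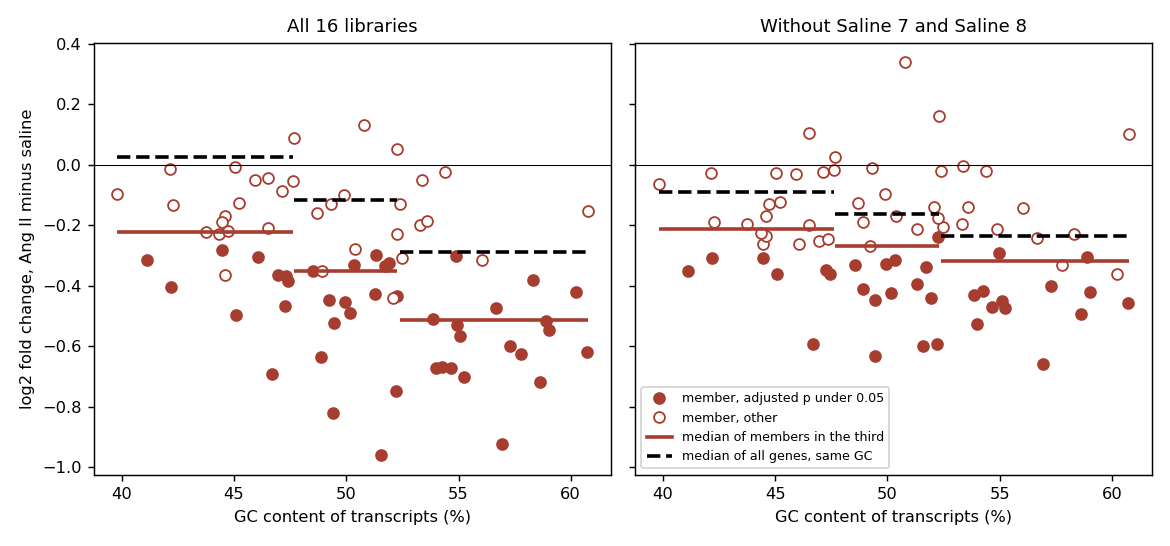
Log2 fold change (Ang II minus saline, y axis) against GC content of the transcripts in percent (x axis) for the 77 tested members, with all 16 libraries and without Saline 7 and Saline 8; lines give medians of members (red) and of all genes of the same GC range (black, dashed). In both panels the red line lies below the black line in each GC range, by less in the second panel.

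Genes that act with the mitochondrial ribosome were lower in part. Of 5 ribosome proteins with other names 3 fell, where 24.9% of all genes were lower. These were Dap3 and Aurkaip1 of the small subunit and Gadd45gip1 of the large subunit. Dap3 ran from 42.0 to 92.7 FPKM (median 50.04) in saline and from 36.7 to 55.6 (median 40.1) with Ang II (log2 fold change -0.40, SE 0.15, adjusted p = 0.0454 by limma). The log2 fold changes of Aurkaip1 and Gadd45gip1 were -0.29 and -0.42, and 42.0% of the exon bases of Gadd45gip1 overlap other genes. After median ratio scaling limma called 0 of the 5, also at an unadjusted p below 0.05; limma voom and the Wilcoxon test, without that scaling, called 3.

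Of 24 genes for ribosome assembly and rRNA modification 13 fell (54.2%, against 24.9% of all genes), and 10 were lower after median ratio scaling (41.7%, against 14.1%). Dhx30, an RNA helicase needed to build the ribosome, ran from 41.4 to 82.4 FPKM (median 45.8) in saline and from 23.2 to 34.3 (median 32.0) with Ang II, with no overlap (log2 fold change -0.71, SE 0.14, adjusted p = 0.000974 by limma). Ngrn, which acts on the large rRNA, had a log2 fold change of -0.61 (SE 0.12, adjusted p = 0.000788 by limma). The rRNAs themselves did not pass. The small rRNA mt-Rnr1 ran from 415 to 1978 FPKM (median 746) in saline and from 680 to 2106 (median 837) with Ang II (log2 fold change 0.42, SE 0.32, adjusted p = 0.32 by limma), and the large rRNA mt-Rnr2 had a log2 fold change of 0.24 (SE 0.30, adjusted p = 0.555). Both were named after their values were seen, and the libraries were made for mRNA.

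Of 13 mitochondrial translation factors 7 fell (53.8%, against 24.9% of all genes). After median ratio scaling 3 were lower (23.1%, against 14.1%) and 1 higher (14.9% of all genes were higher). Oxa1l, which inserts new mitochondrial proteins into the inner membrane, ran from 34.5 to 54.3 FPKM (median 36.7) in saline and from 21.1 to 30.3 (median 24.2) with Ang II, with no overlap (log2 fold change -0.60, SE 0.11, adjusted p = 0.000569 by limma). Mtrf1l, a release factor, fell by 0.47 on the log2 scale (SE 0.10, adjusted p = 0.00257 by limma). Of 14 genes for mitochondrial transcription and RNA handling 7 fell (50%), and 1 was lower after median ratio scaling (7.14%, under the 14.1% of all genes). The 7 included Twnk, the mitochondrial DNA helicase (log2 fold change -0.50, adjusted p = 0.00794 by limma), Ssbp1, a DNA-binding protein (-0.56, 0.0084), Polrmt, the mitochondrial RNA polymerase (-0.54, 0.00857), and Tfam, which packs mitochondrial DNA (-0.31, 0.0228).

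Of 9 regulators of mitochondrial gene expression 2 fell (22.2%) and 1 rose (11.1%), shares near those of all genes (24.9% and 9.54%). Nrf1, whose motif is printed above, ran from 10.7 to 18.8 FPKM (median 13.4) in saline and from 9.87 to 12.1 (median 10.9) with Ang II (log2 fold change -0.31, SE 0.10, adjusted p = 0.0304 by limma). Nrf1 lost the call in 12 of the 31 other settings, among them median ratio scaling (-0.18), the replicate block and both adipocyte scores, and without Saline 7 and Saline 8 (-0.24, adjusted p = 0.052 by limma). Ppargc1b, a coactivator named after its values were seen, was low, with medians of 1.26 and 0.472 FPKM (log2 fold change -0.60, SE 0.12, adjusted p = 0.00087 by limma). Myc ran from 0.396 to 3.13 FPKM (median 1.52) in saline and from 1.496 to 18.2 (median 3.81) with Ang II, and it rose (log2 fold change 1.26, SE 0.36, adjusted p = 0.0121 by limma). Myc lost the call in 3 of the 31, since the Myc log2 fold change did not pass with the brown adipocyte score (adjusted p = 0.0668 by limma), with the white adipocyte score (0.067) or without Saline 2, Saline 7 and Saline 8 (0.0597). Ppargc1a and Gabpa did not pass, with log2 fold changes of -0.17 (SE 0.12) and 0.12 (SE 0.23).

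The proteins of the cytosolic ribosome, which translates nuclear mRNAs, were also lower. Of 73 tested 59 fell (80.8%, against 24.9% of all genes), with a median log2 fold change of -0.56. After median ratio scaling 26 were lower (35.6%, against 14.1%) and 1 higher (14.9% of all genes were higher), with a median of -0.42. Their summed FPKM was also highest in Saline 8 and Saline 7. Without those libraries 56 were lower, with a median of -0.40, where 26.6% of all genes were lower, with a median of -0.16. The difference between the 2 kinds of ribosome was not tested.

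Many members share a start region with another gene. Of the 78, 25 (32.1%) have a protein-coding gene on the other strand that starts within 500 bases, where 1692 of 12717 tested protein-coding genes (13.3%) have 1. Mrps11 and Mrpl46 are each other's neighbour. Of the other 23 neighbours 22 were tested, of which 10 were lower and 3 higher. Over all genes tested, 24.9% were lower and 9.54% higher. In 13 of the pairs the member was lower, and in 7 of those 13 the neighbour was lower too. Whether members and neighbours moved together was not tested. Mrps12 and its neighbour Sars2, which charges mitochondrial tRNA with serine, both fell (Sars2 log2 fold change -0.71, SE 0.22, adjusted p = 0.0189 by limma), and the printed Mrps12 window covers the space between their starts. Ptcd2, the neighbour of Mrps27, fell as well (-0.47, SE 0.16, adjusted p = 0.0288 by limma). The 3 neighbours that rose belong to members that did not pass: Ska3 beside Mrpl57 (1.26, SE 0.17), Eme1 beside Mrpl27 (0.82, SE 0.15) and Ncapd2 beside Mrpl51 (0.66, SE 0.12). Of these, Ska3 and Ncapd2 serve chromosome segregation and condensation and Eme1 serves DNA repair. The pairs were picked out after their values were seen.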

How the data were processed

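For the aligner, the counter and the use of strand: not given in the sources used here. Per the labels' protocols, RNA was extracted with Trizol from aortas without adventitia and libraries were made with a SMARTER mRNA-seq kit; the submitters' processing notes name builds GRCm38 and mm10. The authors deposited 1 table of FPKM values for 54532 genes, with 8 saline and 8 Ang II libraries. Library names call both groups WT, while the labels' protocols give Apoe-/- mice throughout. The gene length column was deposited by the authors and did not enter the recovery of reads. That step used the mean transcript length from the reference annotation.

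Genes with a mean of at least 0.5 FPKM over 16 libraries (15007) were fitted with limma 3.58.1 (R 4.3.3, trended variance) on log2(FPKM + 1), with Benjamini-Hochberg adjustment over all 15007 and a threshold of 0.05. Fold changes on this scale understate those of low genes. Reads recovered from FPKM steps entered limma voom as an alternative, and the script was tested on simulated data. GC content, length and exon overlap came from the reference annotation, where 99.93% of the gene identifiers were found. The members and lists were chosen with earlier results of these data known. Named members were the 12 that fell with the smallest adjusted p, the 3 highest and 3 lowest by mean FPKM, and a fixed set of factor-binding, decoding, rescue, membrane and Mrps18 proteins with Mrps36; from each related list came up to 2 that rose and 2 that fell, with 7 fixed genes. The other named genes were chosen after their values were seen. For 31 other settings see the closing section.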

Additional observations from a re-analysis of the deposited data

Results flagged for a closer look

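In 5 of the 52 groups of 8 libraries examined, 1 library lay far from the others by Dixon's test, where chance alone gives about 1 in 20. Saline 8 was the distant library for Mrpl45, at 34.6 FPKM with the next library at 21.4, for Mrpl9, at 32.3 with the next at 24.95, and for Mrps5, at 30.9 with the next at 23.97. Saline 1 was distant for Mrpl1, at 5.43 FPKM with the next at 4.46. Ang II 1 was distant for Mrpl20, at 102.9 FPKM with the next at 83.5. Without Saline 7 and Saline 8 the log2 fold changes of Mrpl9 and Mrps5 were -0.42 and -0.45, and both stayed past the threshold.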

How the results depend on the processing

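Under the 31 other settings the median log2 fold change of the members was below 0 and 0 members were higher. The count of lower members moved by over 1.5 times from 43 in 4 settings: 16 with median ratio scaling, 18 with quantile normalization, 18 with the brown adipocyte score and 20 with the white adipocyte score as a covariate; the cause was not tested. Leaving out 1 library at a time gave 30 (without Ang II 7) to 48 (without Saline 4) lower, 0 to 0 higher and a median of -0.38 to -0.31. Whether equal library numbers mark paired samples cannot be told from correlations of the values. Of 8 same-numbered pairs 5 correlated over 0.1, from -0.25 to 0.39, and 2 of 8 saline libraries correlated best with their own number. With the replicate block 33 members were lower. Shares of all genes are not given here for the left-out libraries or the block. Among named genes, 1081 values stayed on their side, 136 lost and 8 gained the call, and 14 changed sign, all in genes that had not passed. The Mrps21 log2 fold change was 0.096 with quantile normalization, 0.013 with median ratio scaling and 0.034 with GC and length trends removed, with or without the block. The Mrpl20 log2 fold change was -0.0048 without Saline 4 and -0.0040 without Ang II 1, within -0.0048 to 0.13 over single left-out libraries. The Gabpa log2 fold change was -0.16 with sample weights, -0.19 and -0.11 with the brown and white adipocyte scores, -0.057 with GC and length trends removed, with or without the block, -0.21 without Saline 7 and Saline 8, and -0.27 without Saline 2 too, and from -0.086 (without Saline 8) to 0.19 over single left-out libraries. Depth sets the floor: members had at least 99 reads in every library.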

Other observations

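The 13 mRNAs encoded by mitochondrial DNA, which the mitochondrial ribosome translates, were looked at after the values of the members were seen. Their summed FPKM ran from 43347 to 90490 in saline (median 54556) and from 48716 to 154222 with Ang II (median 74997), so the groups overlapped widely. The log2 fold change was above 0 for 12 of 13, with a median of 0.29, or 0.21 without Saline 7 and Saline 8. Limma called 0 lower and 0 higher, with 0 lower and 1 higher at an unadjusted p below 0.05; limma voom and the Wilcoxon test called 0 as well. After median ratio scaling the median was 0.43 and mt-Nd5, a subunit of respiratory complex I, was called higher (log2 fold change 1.04, adjusted p = 0.037 by limma), where it had been 0.90 (SE 0.36, adjusted p = 0.065) without that scaling. Near-identical nuclear copies of mitochondrial genes exist, so reads of these genes are uncertain.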
